A study of Homo sapiens with 4 samples.

Results

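HIPK3, RNF141, SAMTOR, SMIM15, ASPH and AAK1 were among the genes with the lowest signals under hMOF siRNA relative to scramble siRNA in both of 2 human non-small cell lung cancer lines. They were chosen for that difference, as read by the probe set of each gene with the highest mean signal, so every ratio of hMOF siRNA to scramble given for them is a description with no test. The array reads these 6 genes with 26 of its 54613 non-control probe sets, and each probe set was followed apart. Ranked by the log2 ratio of the line with the smaller fall, the genes stood at places 1, 2, 6, 7, 11 and 42 among 12830 genes. Another 36 genes lay between them. The groups were A549 cells with hMOF siRNA, A549 cells with scramble siRNA, H1299 cells with hMOF siRNA and H1299 cells with scramble siRNA, each measured on 1 Affymetrix array. All 4 received siRNA with a lipid reagent. hMOF is the histone H4 acetyltransferase encoded by KAT8, A549 is an adenocarcinoma line and H1299 a line from a lymph node metastasis. Both are established lines, the labels do not state the siRNA sequences, and no group has a replicate.

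The 6 genes belong to no common pathway. HIPK3 is a serine/threonine kinase of the homeodomain-interacting family, and RNF141 carries a RING finger, the fold of many ubiquitin ligases. SAMTOR binds S-adenosylmethionine and holds mTORC1 back when methionine is short, through the GATOR1 and KICSTOR complexes. SMIM15 is a small membrane protein gene. ASPH encodes an endoplasmic reticulum hydroxylase of aspartyl and asparaginyl residues in EGF-like domains, and shorter products of the same gene, junctin and junctate, lack the catalytic domain and take part in calcium handling. AAK1 is the kinase that phosphorylates the AP-2 adaptor in clathrin-coated pits.

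The promoters of 5 of the genes are shown because the genes moved together, with 300 bases each (250 before and 50 after the start site, RefSeq, GRCh38.p14). ASPH, chosen by the same rule, is not among them. HIPK3 has 3 separate windows in that table, of which those with the fewest and the most CpG dinucleotides are printed. Capitals mark every match on either strand to GGGCGG, known as the GC box, to the CCAAT box by those letters, to TATAAA for the TATA box, to CGGAAG for the ETS core or to CACGTG for the E-box. No matches of different motifs overlapped, while matches to the GC box can overlap each other.
HIPK3, chr11:33256422-33256721, plus strand: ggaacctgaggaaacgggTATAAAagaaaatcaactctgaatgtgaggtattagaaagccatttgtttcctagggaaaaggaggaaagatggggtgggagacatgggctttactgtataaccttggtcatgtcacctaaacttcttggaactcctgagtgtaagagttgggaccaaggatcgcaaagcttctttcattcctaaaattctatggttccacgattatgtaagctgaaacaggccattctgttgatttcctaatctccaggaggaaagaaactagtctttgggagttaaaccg
HIPK3, chr11:33257131-33257430, plus strand: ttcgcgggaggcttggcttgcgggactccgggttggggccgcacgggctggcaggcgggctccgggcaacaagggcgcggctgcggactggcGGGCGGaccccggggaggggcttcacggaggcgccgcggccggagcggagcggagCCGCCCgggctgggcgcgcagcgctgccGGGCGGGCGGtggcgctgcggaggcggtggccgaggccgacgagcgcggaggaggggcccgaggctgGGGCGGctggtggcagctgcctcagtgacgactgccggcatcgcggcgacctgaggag
RNF141, chr11:10541138-10541437, minus strand: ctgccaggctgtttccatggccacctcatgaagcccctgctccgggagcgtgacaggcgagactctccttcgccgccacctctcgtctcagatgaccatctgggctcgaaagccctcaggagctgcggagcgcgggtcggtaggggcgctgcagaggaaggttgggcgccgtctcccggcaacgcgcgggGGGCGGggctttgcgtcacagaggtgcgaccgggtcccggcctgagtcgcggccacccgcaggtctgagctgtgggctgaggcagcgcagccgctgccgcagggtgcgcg
SAMTOR, chr7:112939826-112940125, minus strand: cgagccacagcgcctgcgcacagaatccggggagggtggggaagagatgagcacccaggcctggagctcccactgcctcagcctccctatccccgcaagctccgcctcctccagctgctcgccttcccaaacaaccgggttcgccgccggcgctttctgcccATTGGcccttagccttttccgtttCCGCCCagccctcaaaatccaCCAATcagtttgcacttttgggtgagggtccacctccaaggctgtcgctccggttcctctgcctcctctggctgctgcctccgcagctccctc
SMIM15, chr5:61162419-61162718, minus strand: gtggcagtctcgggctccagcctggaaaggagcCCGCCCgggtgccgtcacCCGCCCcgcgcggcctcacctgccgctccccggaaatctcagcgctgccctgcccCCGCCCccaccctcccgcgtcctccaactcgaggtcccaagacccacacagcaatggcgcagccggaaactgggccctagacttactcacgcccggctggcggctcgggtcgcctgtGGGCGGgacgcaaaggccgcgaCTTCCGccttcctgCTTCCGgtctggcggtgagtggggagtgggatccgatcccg
AAK1, chr2:69643690-69643989, minus strand: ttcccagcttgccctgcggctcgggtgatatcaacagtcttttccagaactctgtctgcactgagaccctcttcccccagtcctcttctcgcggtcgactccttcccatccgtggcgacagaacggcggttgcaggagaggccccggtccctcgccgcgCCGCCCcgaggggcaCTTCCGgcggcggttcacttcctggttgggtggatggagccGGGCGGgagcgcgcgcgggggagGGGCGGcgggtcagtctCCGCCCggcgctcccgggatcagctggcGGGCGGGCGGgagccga
The GC box was present in 6 of the 7 windows, against 45% of the 35116 promoter windows in the table. Each of the 5 genes had it in at least 1 window, with 3 windows for HIPK3. Those 6 windows had GC contents of 64.3% to 79.7%, above the median of all windows. Overlapping windows of a gene were dropped for these genes but not for the whole table. The comparison was not matched for GC content and was not tested. The window without a GC box was the first of HIPK3. It had 4 CpG dinucleotides, a GC content of 42% and a TATA box, a motif found in 11.5% of all windows. The second HIPK3 window had 44 CpG dinucleotides and a GC content of 79.7%, and all windows of the table had a median of 14 and 58.7%. The CCAAT box stood only in SAMTOR, with 2 matches (34.6% of all windows have it). The ETS core stood in SMIM15 with 2 matches and in AAK1 with 1 (19.5% of all windows). No window held the E-box, which 7.26% of all windows hold. These are matches of letters, and nothing measured here bears on binding.

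Before the results, the labels and arrays were checked. The treatment tag names hMOF siRNA on both A549 arrays and control siRNA on both H1299 arrays, whereas source names and titles separate the siRNAs within each line and were used here. KAT8 signal in probe set 221820_s_at was 106 with hMOF siRNA and 402 with scramble in A549, and 61.8 with hMOF siRNA and 241 with scramble in H1299, which follows the source names. The other KAT8 probe set, 214885_at, was dim and changed less, keeping 83.8% of the scramble signal in A549 and 64.5% in H1299. Array medians lay between 73.3 and 75.4. The 5 epithelial markers (EPCAM, KRT8, KRT18, KRT19, CDH1) summed to signals of 19998 with hMOF siRNA and 21997 with scramble in A549, and to 2716 and 3600 in H1299, where CDH1 was at 7.61 with hMOF siRNA and 8.04 with scramble. Of the 4 alveolar markers, SFTPB, SFTPC and NAPSA had mean signals above the minimum used below and NKX2-1 did not, and together they summed to 996 with hMOF siRNA and 1060 with scramble in A549 and to 957 and 1031 in H1299. The 3 mesenchymal markers (VIM, CDH2, FN1) summed to 25179 with hMOF siRNA and 23281 with scramble in A549, and to 18379 and 19047 in H1299. The 3 leukocyte markers summed to between 148 and 245 and the 2 endothelial markers to between 237 and 272. Of these, CD3E and PECAM1 had mean signals above the minimum. The part of these markers in the results was not tested.

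Ratios are log2((hMOF siRNA signal + 29.06) / (scramble signal + 29.06)) within a line, so that dim signals weigh less. Of the 26 probe sets, 15 had a mean signal over the 4 arrays at or above the minimum of 78.1, the median of all probe sets, and 11 did not. Among the 15, 7 were at least 2-fold lower with hMOF siRNA in both lines. In A549 and in H1299 taken alone, 8 of the 15 were 2-fold lower. Over all 27307 probe sets above the minimum these shares were 0.63% in both lines, 0.967% in A549 and 1.85% in H1299. Nothing is read from the gap, since the genes were picked on this contrast. None of the 15 was 2-fold higher in both lines, and 0.253% of all probe sets were. The median log2 ratio of all probe sets was −0.03 in A549 and −0.01 in H1299.

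**Figure D1:**
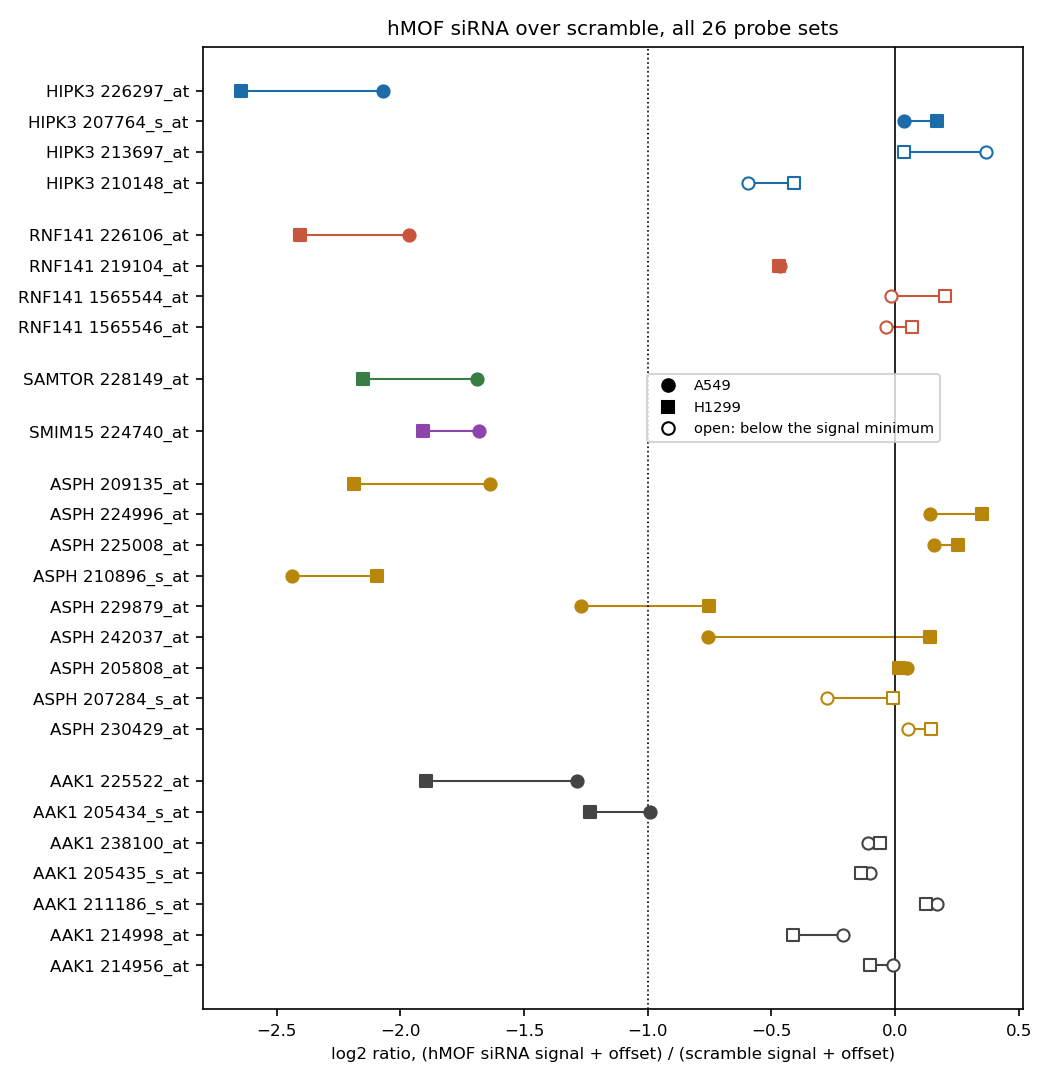
Log2 ratio of hMOF siRNA to scramble (horizontal axis) for the 26 probe sets of the 6 genes (rows), circles for A549 and squares for H1299, open where the mean signal is below the minimum. The dotted line marks a 2-fold lower signal, which 7 probe sets pass in both lines, and ASPH probe sets lie on both sides of 0.

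HIPK3 stood first of all genes, on 1 probe set out of 4. Probe set 226297_at gave signals of 697 with hMOF siRNA and 3024 with scramble in A549. In H1299 it gave 407 with hMOF siRNA and 2702 with scramble. The hMOF siRNA arrays kept 23.1% of the scramble signal in A549 and 15.1% in H1299, a mean log2 ratio of −2.36 ± 0.41 (SD, n = 2 lines), and both lay far below either scramble array. The other HIPK3 probe set above the minimum did not share this. Its mean signal, 94.3, lay near the minimum of 78.1, so it could show little of a fall. Probe set 207764_s_at stood at 97.3 with hMOF siRNA and 94.0 with scramble in A549, and at 100 with hMOF siRNA and 85.8 with scramble in H1299, log2 ratios of 0.04 and 0.17. Of the dim pair, 213697_at was at 0.37 and 0.04 and 210148_at at −0.59 and −0.41 in A549 and H1299. Probe set 210148_at had signals of 24.8 to 52.2 on all 4 arrays. The HIPK3 difference was thus read by a single bright probe set in each line.

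RNF141 had the second place among genes and again differed between its probe sets in size. Probe set 226106_at was at 287 with hMOF siRNA and 1204 with scramble in A549, and at 73.3 with hMOF siRNA and 514 with scramble in H1299. That is 23.8% of the scramble signal in A549 and 14.3% in H1299 (mean log2 ratio −2.19 ± 0.31, SD, n = 2 lines). Probe set 219104_at was lower with hMOF siRNA as well, at 171 against 247 with scramble in A549 and at 119 against 176 with scramble in H1299. It kept 69.2% and 67.6% of the scramble signal, so both RNF141 probe sets above the minimum pointed down in both lines, by log2 −1.96 and −0.46 in A549 and by −2.41 and −0.47 in H1299. Probe sets 1565544_at and 1565546_at had signals of 15.3 to 25.9 on all arrays and log2 ratios of −0.04 to 0.20.

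SAMTOR and SMIM15 are each read by 1 probe set, so nothing on this array can show whether other parts of their transcripts moved alike. SAMTOR (228149_at) was at 211 with hMOF siRNA and 747 with scramble in A549, and at 218 with hMOF siRNA and 1069 with scramble in H1299. Its hMOF siRNA signals kept 28.3% of scramble in A549 and 20.4% in H1299 (mean log2 ratio −1.92 ± 0.33, SD, n = 2 lines). SMIM15 (224740_at) was at 404 with hMOF siRNA and 1362 with scramble in A549, and at 405 with hMOF siRNA and 1600 with scramble in H1299. It kept 29.7% in A549 and 25.3% in H1299 (mean log2 ratio −1.80 ± 0.16, SD, n = 2 lines). For both genes the hMOF siRNA signals of the lines were close to each other, and the scramble signals were higher in H1299 than in A549.

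ASPH had 7 of its 9 probe sets above the minimum, and they differed widely. The pair 210896_s_at and 209135_at was strongly lower. Probe set 210896_s_at was at 710 with hMOF siRNA and 3973 with scramble in A549, and at 229 with hMOF siRNA and 1073 with scramble in H1299. Its log2 ratios were −2.44 in A549 and −2.09 in H1299. Ranked by the log2 ratio of the line with the smaller fall, it stood at place 1 of all 27307 probe sets. Probe set 209135_at was at 2625 with hMOF siRNA and 8224 with scramble in A549, and at 785 with hMOF siRNA and 3679 with scramble in H1299 (log2 ratios −1.64 and −2.19). Another pair, also bright, pointed up slightly. Probe set 224996_at was at 4172 with hMOF siRNA and 3776 with scramble in A549, and at 1834 with hMOF siRNA and 1430 with scramble in H1299. Probe set 225008_at was at 2698 with hMOF siRNA and 2414 with scramble in A549, and at 907 with hMOF siRNA and 754 with scramble in H1299. Their hMOF siRNA signals were 110% to 128% of scramble (log2 ratios 0.14 to 0.35), in the same arrays in which the first pair stood at 17.9% to 31.9%.

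The remaining ASPH probe sets lay between these pairs. Probe set 229879_at was at 190 with hMOF siRNA and 498 with scramble in A549, and at 514 with hMOF siRNA and 885 with scramble in H1299, log2 ratios of −1.27 and −0.75. Probe set 242037_at pointed different ways, at 325 with hMOF siRNA and 569 with scramble in A549 (−0.76) and at 159 with hMOF siRNA and 141 with scramble in H1299 (0.14). Probe set 205808_at, listed in the annotation under a RefSeq transcript, stood at 172 with hMOF siRNA and 165 with scramble in A549 and at 102 with hMOF siRNA and 100.1 with scramble in H1299. The dim 207284_s_at and 230429_at had log2 ratios of −0.28 to 0.15. From the lowest to the highest of the 7 probe sets above the minimum, ASPH ratios spanned log2 2.60 in A549 and 2.54 in H1299. Those of the HIPK3 pair, whose dimmer member lay near the minimum, spanned 2.11 and 2.81. Which ASPH product each probe set reads is not stated in the sources used here.

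**Figure D2:**
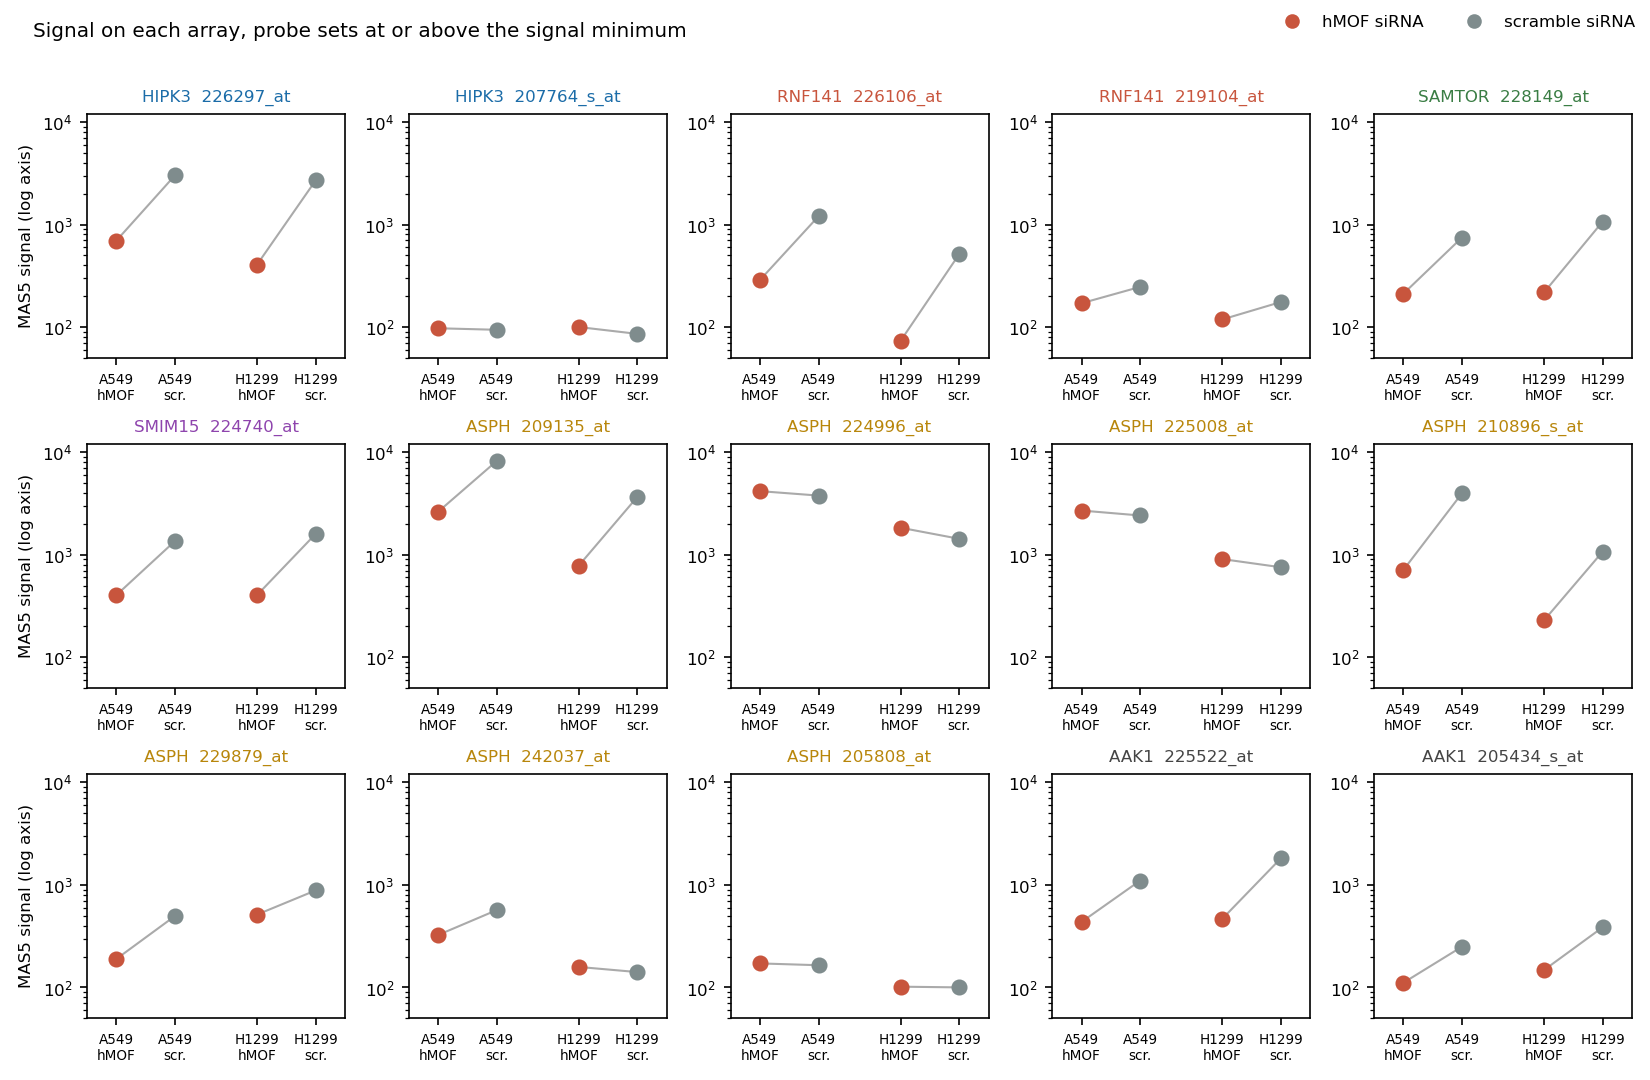
MAS5 signal (log axis) of the 15 probe sets above the minimum on each of the 4 arrays, red for hMOF siRNA and grey for scramble, with lines joining the arrays of a cell line. HIPK3 226297_at is at 697 and 407 with hMOF siRNA, whereas HIPK3 207764_s_at stays between 85.8 and 100 on all arrays.

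AAK1 was the gene whose probe sets above the minimum came closest to each other. Probe set 225522_at was at 436 with hMOF siRNA and 1105 with scramble in A549, and at 468 with hMOF siRNA and 1822 with scramble in H1299. Probe set 205434_s_at was at 111 with hMOF siRNA and 250 with scramble in A549, and at 148 with hMOF siRNA and 386 with scramble in H1299. The first kept 39.5% of scramble in A549 and 25.7% in H1299 (mean log2 ratio −1.59 ± 0.43, SD, n = 2 lines), and the second 44.5% and 38.3% (−1.11 ± 0.17). In A549 the second probe set was at log2 −0.99, just short of 2-fold, and at −1.17 with no offset added. The other 5 AAK1 probe sets had signals of 11.7 to 80.4 and log2 ratios of −0.41 to 0.17.

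All 11 probe sets below the minimum, whose signals lay between 11.7 and 88.4, had log2 ratios from −0.59 to 0.37 in A549 and from −0.41 to 0.20 in H1299. These probe sets sit in the dimmer part of the array, and their ratios say little about their genes. The annotation lists 5 of the 26 probe sets under a RefSeq transcript, 19 under another accession and 2 under none. None of the 5 was 2-fold lower in both lines (log2 ratios −0.47 to 0.17), and 7 of the 19 were. Above the minimum the counts were 0 of 3 and 7 of 12. The 7 include the probe set of highest mean signal of each gene, by which the genes were chosen. Nothing is read from this split. Among all single-gene probe sets above the minimum, 0.592% of those listed under a RefSeq transcript and 0.819% of those under another accession were 2-fold lower in both lines.

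How often the probe sets of 1 gene differ in this way was counted over the whole array. In 100 genes the probe set with the highest mean signal was 2-fold lower in both lines, and 54 of these genes had further probe sets above the minimum. For HIPK3, RNF141, ASPH and AAK1, 1 of 9 further probe sets was also 2-fold lower in both lines (11.1%), and 4 of 9 were below 0 in both. For the other 50 genes, 22 of 88 further probe sets were 2-fold lower in both lines (25.0%), and 71 of 88 were below 0 in both (80.7%). Over all probe sets above the minimum 36.6% were below 0 in both lines. These shares were not tested, and in all 54 genes the leading probe set was selected for its own difference. Over all 54 genes, 7 had every further probe set 2-fold lower, 12 had some and 35 had none.

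In each of the 6 genes the leading probe set, that of highest mean signal, was lower by more in H1299 than in A549. The log2 ratio of H1299 minus that of A549 was −0.57 for HIPK3, −0.44 for RNF141, −0.46 for SAMTOR, −0.23 for SMIM15, −0.55 for ASPH and −0.61 for AAK1. Of the 172 probe sets 2-fold lower in both lines, 113 (65.7%) had the larger difference in H1299, with a median of −0.11. ASPH 210896_s_at was among the others, with 0.34. The design leaves no degree of freedom to test a difference between the lines' responses.

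**Figure D3:**
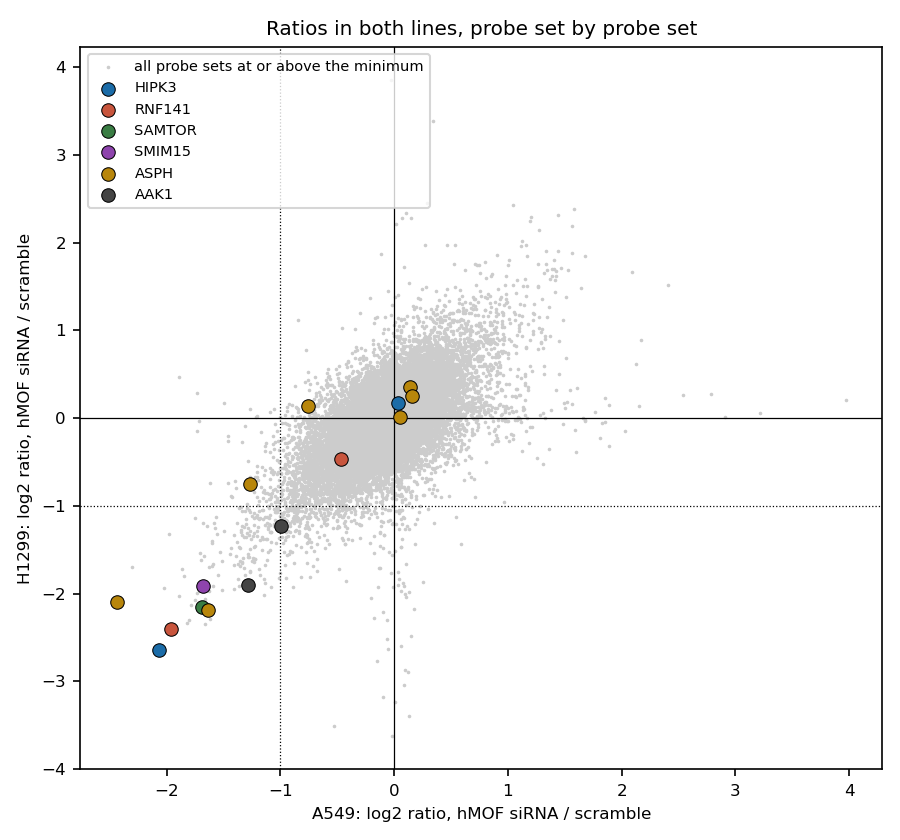
Log2 ratio of hMOF siRNA to scramble in A549 (horizontal) and in H1299 (vertical), 1 point per probe set above the minimum, grey for the whole array and coloured for the 6 genes. The 7 probe sets under both dotted lines are at least 2-fold lower in both lines, and 4 coloured points lie above 0 in both.

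The difference between the cell lines, H1299 against A549, played no part in the choice of these genes and was tested with limma over all 27307 probe sets, with siRNA as a block. Most ASPH probe sets and both RNF141 probe sets were lower in H1299, while HIPK3, SAMTOR and SMIM15 did not pass the test. Of the 15 probe sets, 8 were lower in H1299, 2 were higher and 5 did not pass, against calls on 50% of all probe sets (24.6% lower and 25.3% higher). Here the siRNAs serve as the repeats with 1 residual degree of freedom, and nothing says that cultures were repeated. The p-values rest on how far the line difference varied between the siRNAs, moderated over all probe sets. That variation mixes array spread, which may be technical, with any difference in the lines' responses to hMOF siRNA.

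ASPH was lower in H1299 in 6 of 7 probe sets, including both pairs that differed under hMOF siRNA. The log2 difference was −1.43 ± 0.16 for 209135_at (SE, limma adjusted p = 0.000908) and −1.69 ± 0.13 for 210896_s_at (adjusted p = 0.000250). It was −1.28 ± 0.12 for 224996_at (limma adjusted p = 0.000482) and −1.59 ± 0.11 for 225008_at (adjusted p = 0.000176). The exception was 229879_at, at 514 with hMOF siRNA and 885 with scramble in H1299, against 190 with hMOF siRNA and 498 with scramble in A549. That probe set was higher in H1299 by log2 1.05 ± 0.16 (SE, limma adjusted p = 0.00262), with both H1299 arrays above both A549 arrays. RNF141 was lower in H1299 by log2 −1.41 ± 0.15 in 226106_at (limma adjusted p = 0.000675) and −0.43 ± 0.11 in 219104_at (adjusted p = 0.0215).

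AAK1 205434_s_at was higher in H1299 by log2 0.46 ± 0.12 (SE, limma adjusted p = 0.0247). The brighter AAK1 225522_at was at 0.40 ± 0.17 and did not pass (adjusted p = 0.0992 by limma), with a difference of 0.71 between the scramble arrays and 0.09 between the hMOF siRNA arrays. HIPK3 226297_at was at −0.45 ± 0.16 (limma adjusted p = 0.0659), SAMTOR at 0.27 ± 0.15 (0.184) and SMIM15 at 0.12 ± 0.12 (0.476). A p that misses the threshold does not show equal levels in the lines. Over the 8 alternatives of offset, minimum, scaling, variance model and unit that kept the block, the 10 called probe sets passed wherever they were fitted and the 5 others did not.

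**Figure D4:**
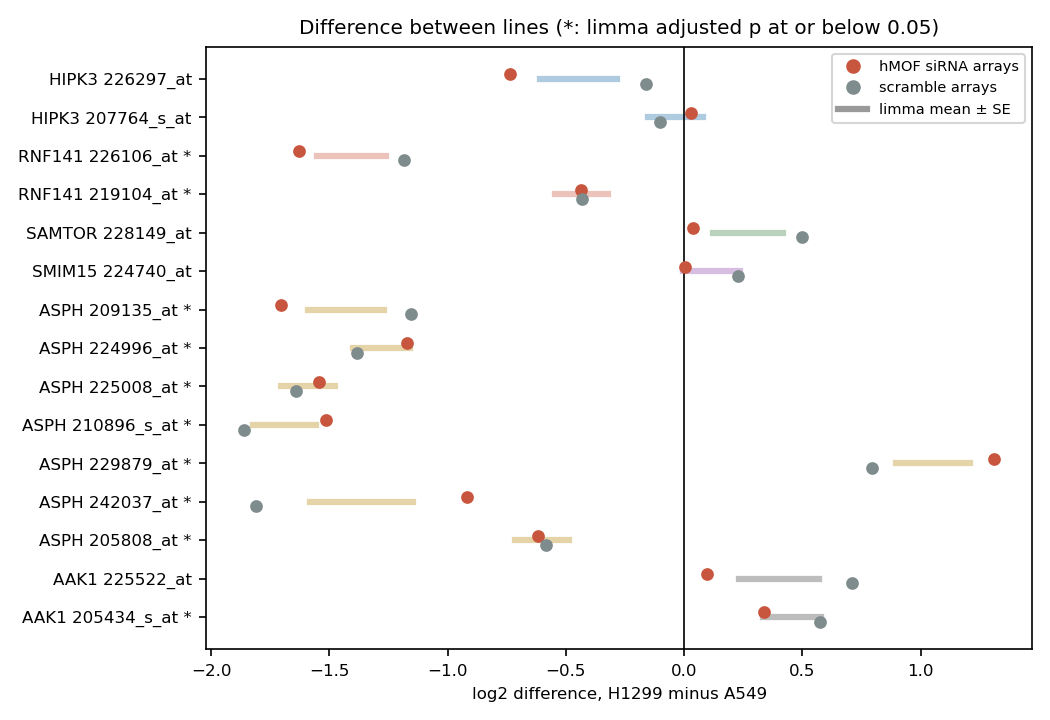
Log2 difference H1299 minus A549 (horizontal axis) for the 15 probe sets above the minimum, red points for the hMOF siRNA arrays, grey points for the scramble arrays and bars for the limma mean ± SE. ASPH 229879_at stands at 1.31 and 0.79 to the right of 0, whereas the other 6 ASPH probe sets lie to the left.

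Relatives and partners of the 6 genes were then read from 8 lists drawn up from general knowledge of their functions. Earlier results of these data were known when the lists were chosen, so the p-values below do not come from an independent choice. In a fit of both lines that blocks on cell line, 5 of the 132 list genes above the minimum fell with hMOF siRNA, 2 rose and 125 did not pass limma's test. That is 3.79% and 1.52%, near the shares of all genes on the same probe set rule, 4.55% lower and 2.29% higher, so the lists as a whole did not stand out. An unadjusted p under 0.05 was reached by 34 of the 132 list genes (25.8%) and by 25.3% of all genes, the share to set beside such counts in single lists. Over all probe sets limma called 4.01% lower and 1.93% higher, 5.95% in all. This test takes the lines as repeats.

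The AAK1 list held 26 measured genes of its kinase family, of the AP-2 adaptor and of clathrin coats, and AP2B1, the beta subunit of AP-2, fell. AP2B1 probe set 200612_s_at was at 807 with hMOF siRNA and 2192 with scramble in A549, and at 315 with hMOF siRNA and 1302 with scramble in H1299. Its mean log2 ratio was −1.68 (SE 0.16, limma adjusted p = 0.0126), lower in 2 of 2 lines. The other AP2B1 probe set, 200615_s_at, was at −0.66 in A549 and −0.06 in H1299 and did not pass (limma adjusted p = 0.271). The other 25 genes did not pass, among them the AP-2 subunit genes AP2M1 at 0.14 in A549 and −0.18 in H1299, AP2A1 at 0.08 and 0.04 and AP2S1 at −0.08 and −0.09. The AAK1 relatives GAK (−0.05, −0.03) and BMP2K (−0.20, −0.25) did not pass either. The list medians were −0.08 in A549 and −0.07 in H1299.

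Of 33 measured genes of amino acid sensing upstream of mTORC1, where SAMTOR acts, 1 fell, 2 rose and 30 did not pass, with medians of −0.03 in A549 and −0.04 in H1299. MTOR, the kinase itself, fell, at 73.3 with hMOF siRNA and 160 with scramble in A549 and at 74.3 with hMOF siRNA and 202 with scramble in H1299 (mean log2 ratio −1.02, SE 0.13, limma adjusted p = 0.0178). Its other probe set, 215381_at, lay below the minimum, at 0.09 and −0.16. FNIP2, a partner of folliculin, rose by a mean log2 of 0.83 (SE 0.12, limma adjusted p = 0.0222). All 3 FNIP2 probe sets above the minimum rose, with adjusted p values of 0.0222 to 0.0287 by limma. SEC13, which serves the GATOR2 complex and COPII coats, rose by 0.65 (SE 0.11, limma adjusted p = 0.0337), a call lost when 1 probe set per gene was fitted (adjusted p = 0.0513). Among SAMTOR's binding partners, NPRL2 was at −0.14 in A549 and −0.22 in H1299, NPRL3 at 0.32 and 0.76 and DEPDC5 at 0.00 and −0.15. KICS2 of KICSTOR was at −0.21 and −0.04. None of these passed, and the other measured KICSTOR genes did not pass either.

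Of 14 measured genes of the methionine and S-adenosylmethionine cycle, 2 fell and 12 did not pass (medians −0.05 in A549 and −0.07 in H1299). AHCYL2, a relative of the enzyme that clears S-adenosylhomocysteine, was at 56.0 with hMOF siRNA and 153 with scramble in A549 and at 69.1 with hMOF siRNA and 197 with scramble in H1299 (mean log2 ratio −1.15, SE 0.11, limma adjusted p = 0.0128). SRM, spermidine synthase, fell in the same test (mean log2 ratio −0.73, SE 0.13, limma adjusted p = 0.0342). MAT2A, which makes S-adenosylmethionine, missed the threshold with −0.19 and −0.01. The call on SRM was lost when 1 probe set per gene was fitted (limma adjusted p = 0.0551).

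The ASPH lists held 1 call. HES1, a NOTCH target gene and repressor, was at 188 with hMOF siRNA and 326 with scramble in A549 and at 408 with hMOF siRNA and 730 with scramble in H1299 (mean log2 ratio −0.75, SE 0.11, limma adjusted p = 0.0260). The other HES1 probe set above the minimum, 203395_s_at, was at −0.60 and −0.36 and did not pass (limma adjusted p = 0.0803). The other 15 measured NOTCH pathway genes did not pass (list medians −0.02 in A549 and −0.26 in H1299). Of the 16 NOTCH genes, HES1 included, 7 had an unadjusted limma p under 0.05, against 25.3% of all genes. That excess was not tested. None of 19 genes of hydroxylases that use 2-oxoglutarate, their subunits and relatives passed limma's test. Of these, 5 had an unadjusted limma p under 0.05, near the 25.3% of all genes. The largest mean ratios there were 0.68 for the collagen prolyl hydroxylase subunit gene P4HA3, 0.44 for P4HB and −0.43 for JMJD6. None of 10 calcium release and entry genes passed, with 3 at an unadjusted p under 0.05 (25.3% of all genes), and ORAI1, a plasma membrane calcium channel, was at −0.47 in A549 and −0.58 in H1299 (limma adjusted p = 0.0572). ITPR1 was at −0.99 and −0.06 and ITPR2 at 0.30 and 0.72.

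Among 7 measured HIPK relatives and partners none passed limma's test, and 1 had an unadjusted p under 0.05, which 25.3% of all genes had. HIPK1, whose mean ratio lay farthest from 0 in this list, was at −0.30 in A549 and −0.76 in H1299 (limma adjusted p = 0.0981). HIPK2 was at −0.12 and −0.35, and the chromatin protein gene HMGA1 at −0.17 and −0.35. None of 7 RING family genes set beside RNF141 passed either, with 0 at an unadjusted p under 0.05 against 25.3% of all genes. RNF138 was at −0.01 and 0.32, RNF185 at −0.13 and −0.11, and RNF5 at 0.09 and 0.05.

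**Figure D5:**
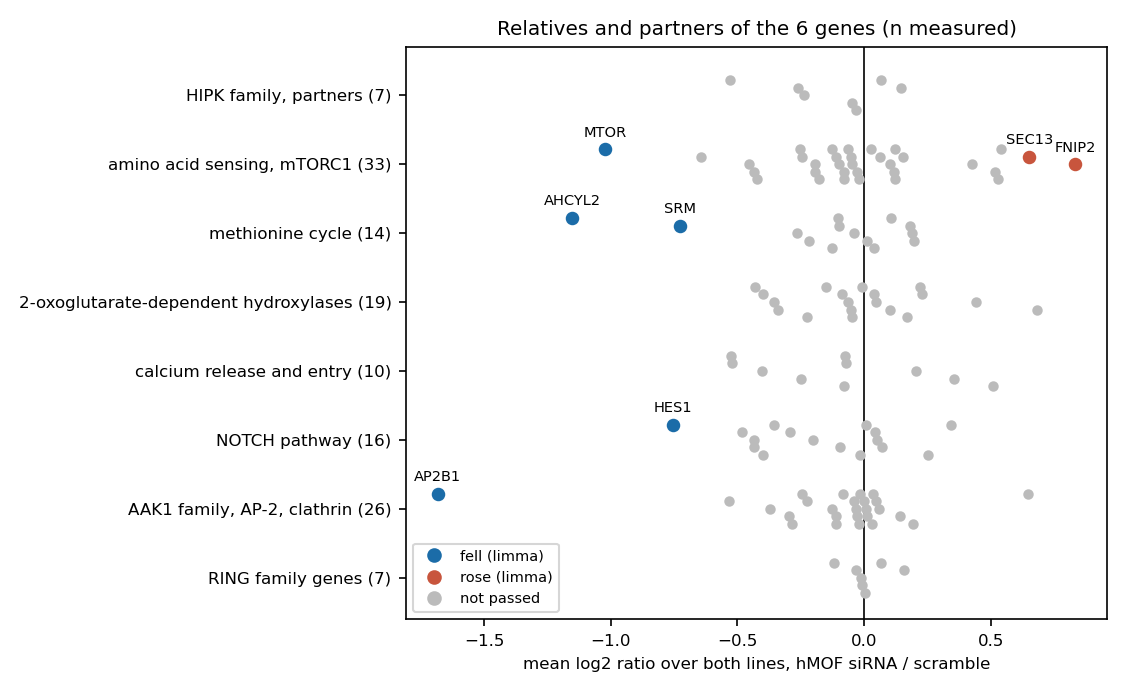
Mean log2 ratio of hMOF siRNA to scramble over both lines (horizontal axis) for the 132 measured genes of 8 lists (rows), 1 point per gene, blue where it fell and red where it rose by limma. The 7 called genes are named, and AP2B1 lies farthest from 0 at −1.68.

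Last, each gene was matched to the 3 genes with the most similar signals over the 4 arrays, by the Euclidean distance of log2(signal + 29.06) values after taking out each probe set's mean, among 12824 genes. The measure uses the same differences by which the 6 genes were chosen, and also the differences between the lines. Likeness of a gene and its neighbours in either is thus built into the match. SAMTOR and SMIM15 lay near each other (0.23) and had the same neighbours in the same order, SKP2, TIMM17B and SLC30A7, at distances of 0.19 to 0.43 from SAMTOR and 0.13 to 0.20 from SMIM15. RNF141 and ASPH lay 0.28 apart and shared ITGA2, AP2B1 and LGALSL, at 0.43 to 0.67. HIPK3 was nearest to STRADB (0.36), UBE2Q1 and SMAD5, and AAK1 to MINDY2 (0.31), PPP2R3C and PAQR3. The neighbours of RNF141 and ASPH, like those genes, were lower in H1299 than in A549 under either siRNA. The genes of the first pair and their neighbours differed little between the lines under hMOF siRNA, by log2 −0.07 to 0.05.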

How the data were processed

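Total RNA of the 4 cultures was measured on Affymetrix arrays as biotinylated cRNA. The authors deposited 1 linear MAS5 signal intensity for each probe set, per the submitters' processing notes. How MAS5 was set is not stated in the labels, and detection calls were not used. MAS5 values of dim probe sets vary most, and precision is limited by having 4 arrays.

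Groups follow the source names. Of 54675 probe sets, 62 controls were left out. The platform annotation gives 1 gene for 41091, several for 1801 and none for 11721, and symbols were updated by gene identifier from RefSeq (GRCh38.p14). The genes and lists were chosen with earlier results of these data known. The offset, 29.06, is the 20th percentile of all signals, and the minimum, 78.1, is the 50th percentile of mean signals. limma 3.58.1 in R 4.3.3 (lmFit, eBayes, 4.82 prior degrees of freedom) was fitted to all 27307 probe sets above it with terms for line and siRNA, Benjamini-Hochberg threshold 0.05, and was tested on simulated data. A list gene was read from its probe set of highest mean signal. Named were all probe sets of the 6 genes, KAT8, list genes that passed or else the 3 largest mean ratios per list, and 3 neighbours per gene. The related genes AP2M1, AP2A1, AP2S1, GAK, BMP2K, NPRL2, NPRL3, DEPDC5, KICS2 and MAT2A were added after their values were seen. Alternatives were other offsets (0 or 56.5), minima (none or 179), scalings, variance models, blocks, units, single lines or siRNAs, a 1.5-fold size and leaving out _x_at probe sets. Figures used matplotlib 3.10.9.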

Additional observations from a re-analysis of the deposited data

Results flagged for a closer look

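The lines pointed in opposite directions at 4 named probe sets, which was not tested with 1 array pair per line. ASPH 242037_at was at log2 −0.76 in A549 and 0.14 in H1299. RNF138 218738_s_at was at −0.01 in A549 and 0.32 in H1299. The dim RNF141 probe sets 1565544_at and 1565546_at were at −0.0145 and −0.0372 in A549 and at 0.20 and 0.0702 in H1299.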

How the results depend on the processing

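The 7 of 26 probe sets that were 2-fold lower in both lines numbered 7 to 9 under other offsets, scalings and a 1.5-fold size, and 8 in each line alone. The median of the 6 leading mean log2 ratios, −1.92, ran from −2.17 to −1.69. Of 156 recomputed ratios of the 26 probe sets, 140 moved by less than the spread between lines and 13 by more, without changing sign. The 156 include the ratios of each line alone, which by construction cannot move by more than that spread. All 13 thus came from other offsets and scalings. Another 3 changed sign, ASPH 242037_at in H1299 alone (0.14) and RNF141 1565544_at and 1565546_at in A549 alone (−0.0145 and −0.0372). The line difference of HIPK3 207764_s_at, −0.04, was 0.0302 on the hMOF siRNA arrays alone. With no block, limma called 4 of the 15 probe sets between lines, and 0 of all probe sets lower and 0 higher with hMOF siRNA (761 at an unadjusted p under 0.05), so 0 related genes fell and 0 rose (3 at an unadjusted p under 0.05). The cause was not tested. With 1 probe set per gene fitted, 2 of the 6 leading probe sets were called between lines. Of the 12830 genes 309 were then lower (2.41%) and 149 higher (1.16%), against 584 (4.55%) and 294 (2.29%) of the same genes when all probe sets were fitted (1096 and 528 probe sets). Of the 132 related genes 4 then fell (3.03%) and 1 rose (0.758%). With no signal minimum, 8 related genes fell and 4 rose. The adjusted p of the 7 called related genes ran from 0.00611 to 0.0551 over the alternatives with a block. In A549 alone 264 probe sets were 2-fold lower and in H1299 alone 504, against 172 in both. Of the further probe sets of lower genes 23.7% were 2-fold lower, 12.4% with no minimum and 38.3% at 1.5-fold. No paired analysis was possible because the labels carry no replicate numbers, apart from the block for cell line that the fits hold. Probe sets under the minimum have signals near those of unexpressed genes, which limits what their ratios show.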
